A study of Mus musculus with 24 samples.

Results

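The BCL2 family sets whether a cell under stress commits to the mitochondrial pathway of apoptosis. The 10 family genes described here were chosen by name: the pro-survival genes Bcl2, Bcl2l1 and Mcl1, the BH3-only genes Bcl2l11, Bmf, Bbc3, Bid and Pmaip1, and the effectors Bax and Bak1. All 10 were found among the 36528 gene rows of the count tables, and all 10 were among the 17468 genes that passed the filter on low counts and were tested. RNA was sequenced from cells of mouse small-intestine tumours of the genotype AKVPL, given diphtheria toxin (DT) to deplete cells that carry Lgr5, a receptor of intestinal stem cells, or given saline. The groups were DT at 24 h, saline at 24 h, DT at 48 h, saline at 48 h, DT at 96 h and saline at 96 h, with 4 libraries in each of the 6 groups and 24 in all. AKVPL is common to the DT and the saline groups. The labels give this name without spelling out its alleles, and state no age, clone or number of animals. EpCAM, a protein on the surface of epithelial cells, appears in the sample names, and the labels call the sort bulk. Nothing in the labels ties the libraries of a group to separate animals. The spread behind each p-value is that between these samples and may be technical.

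Pro-survival proteins hold the effectors in check at the outer mitochondrial membrane. BH3-only proteins report stress by binding the pro-survival proteins or by activating the effectors directly, and free BAX and BAK1 form pores that release cytochrome c and start the caspase cascade. In mouse intestine, Bcl2 is known to be expressed at the crypt base, where the Lgr5+ cells lie, and BBC3, the protein also called PUMA, is known for its part in the death of crypt cells after DNA damage. Counts were made per gene, so splice forms of opposite action, such as those of Bcl2l1 and Mcl1, were not told apart.

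Promoter windows of 300 bases (250 before to 50 after a transcript start; RefSeq, GRCm38.p6) were at hand for 9 of the 10 genes, 16 windows in all, and Pmaip1 had none. Windows are shown for Bcl2l11 and Bbc3, BH3-only genes that fell together after DT, and for Bax, an effector that rose. Each window shown is one that held a match to a motif, while no window of Bmf, the BH3-only gene that fell most, held any. Capitals mark matches, on either strand, to short motifs of factors linked to this family or to these tumours: TGTTTAC for FOXO factors, CACGTG for E-box factors such as MYC, TTTNNCGC for E2F factors and CTTTGA for TCF/LEF factors. The Bcl2l11 window (chr2:128125788-128126087, plus strand) and the Bbc3 window (chr7:16310011-16310310, plus strand) each held 1 FOXO match and no other. The Bax window (chr7:45466849-45467148, minus strand) held 2 E-box matches and 1 TCF/LEF match, and no match overlapped another.
Bcl2l11: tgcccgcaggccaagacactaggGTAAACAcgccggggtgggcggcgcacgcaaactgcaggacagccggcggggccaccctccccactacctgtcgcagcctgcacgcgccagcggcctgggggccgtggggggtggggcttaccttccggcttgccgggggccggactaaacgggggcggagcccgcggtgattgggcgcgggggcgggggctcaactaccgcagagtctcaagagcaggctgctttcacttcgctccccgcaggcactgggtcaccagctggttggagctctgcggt
Bbc3: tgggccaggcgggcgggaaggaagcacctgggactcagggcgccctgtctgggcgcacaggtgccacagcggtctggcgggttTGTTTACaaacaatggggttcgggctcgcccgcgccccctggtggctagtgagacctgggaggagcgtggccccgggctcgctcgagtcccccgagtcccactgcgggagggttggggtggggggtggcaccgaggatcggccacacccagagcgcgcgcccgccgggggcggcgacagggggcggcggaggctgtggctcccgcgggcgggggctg
Bax: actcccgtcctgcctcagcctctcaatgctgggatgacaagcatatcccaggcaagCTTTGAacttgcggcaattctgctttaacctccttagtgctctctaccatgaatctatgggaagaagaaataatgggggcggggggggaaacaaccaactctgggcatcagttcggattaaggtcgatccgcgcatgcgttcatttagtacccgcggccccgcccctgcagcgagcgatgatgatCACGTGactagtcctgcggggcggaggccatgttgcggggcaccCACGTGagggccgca

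Of all 32851 mouse promoter windows of this length, 3.65% held the FOXO motif, 7.15% the E-box, 5.17% the E2F motif and 16% the TCF/LEF motif. Another Bbc3 window (chr7:16310181-16310480, plus strand) held 1 E-box match, and a Bcl2l1 window (chr2:152830668-152830967, minus strand) held 1 E2F match. The other 11 windows, which include every window of Bcl2, Bmf, Mcl1, Bid and Bak1, held none of the 4 motifs. Also among them are a further Bcl2l11 window (chr2:128127325-128127624) and a further Bbc3 window (chr7:16309333-16309632). A match is a string of letters and not a measured binding site.

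Libraries held 10888654 to 27707554 counts. Lgr5, the targeted gene, averaged 81.4 ± 3.72 CPM (counts scaled to library size; SD, n = 4) in DT and 200 ± 16.9 CPM in saline libraries at 24 h, 121 ± 35.2 and 182 ± 14.0 CPM at 48 h, and 127 ± 5.35 and 171 ± 13.7 CPM at 96 h. Replicate 3 of DT at 48 h stood apart: it had 171 CPM of Lgr5, and on the first principal component it lay at 2.97, while the remaining DT libraries at 48 h lay at -30.86 to -18.43 and all saline libraries at 17.15 to 26.73. By the chi-square of its counts, another library of this group differed most: DT replicate 1 at 48 h gave 20.8, 30.51 and 28.11 per degree of freedom against replicates 2, 3 and 4, which differed from each other by 4.57 to 9.67. In other groups, saline replicate 1 at 96 h gave 35.06, 18.66 and 14.07, where the rest differed by 9.23 to 11.91. DT replicate 3 at 24 h gave 23.91, 14.51 and 25.4, where the rest differed by 10.51 to 16.71. The calls, overlaps and levels of the family genes at 48 h and the calls of the pathway lists are given with all libraries and without DT replicate 1 or 3 of 48 h. Levels at 24 h and 96 h are given with all libraries only. Epithelial markers summed to 6780 to 9060 CPM over the 24 libraries and none was at 0. Fibroblast markers (8 genes, none at 0) summed to 2900 to 6670 CPM in DT and 3410 to 4000 CPM in saline libraries at 24 h, 7030 to 11400 and 3610 to 7310 CPM at 48 h, and 5380 to 9910 and 2750 to 9680 CPM at 96 h, although the sample names carry EpCAM. Endothelial markers summed to 192 to 651 CPM and macrophage markers to 80.4 to 441 CPM. Markers of T and NK cells summed to at most 0.264 CPM, with Nkg7 and Ncr1 at 0 in every library, and B and plasma cell markers to at most 0.537 CPM. In RNA from such mixtures, fewer cells of a type and less RNA per cell cannot be told apart.

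At 24 h all 3 pro-survival genes and 3 of the 5 BH3-only genes fell, and both effectors rose. Of the 10 genes, 6 were lower and 2 higher after DT by the quasi-likelihood test of edgeR, at a Benjamini-Hochberg adjusted p under 0.05, where 38.7% of all tested genes were called, 18.9% lower and 19.9% higher. The median log2 fold change of the 10 genes was -0.18, against -0.0036 for all tested genes. By CPM the libraries did not overlap for 6 of the 10 genes. Those with DT were all lower for Bcl2, Bcl2l11, Bbc3 and Bmf, as for 16.2% of tested genes. They were all higher for Bax and Bak1, as for 18.1%. Bax was apart by CPM only narrowly, and overlapped on the authors' nRPKM scale, which is per length.

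**Figure D1:**
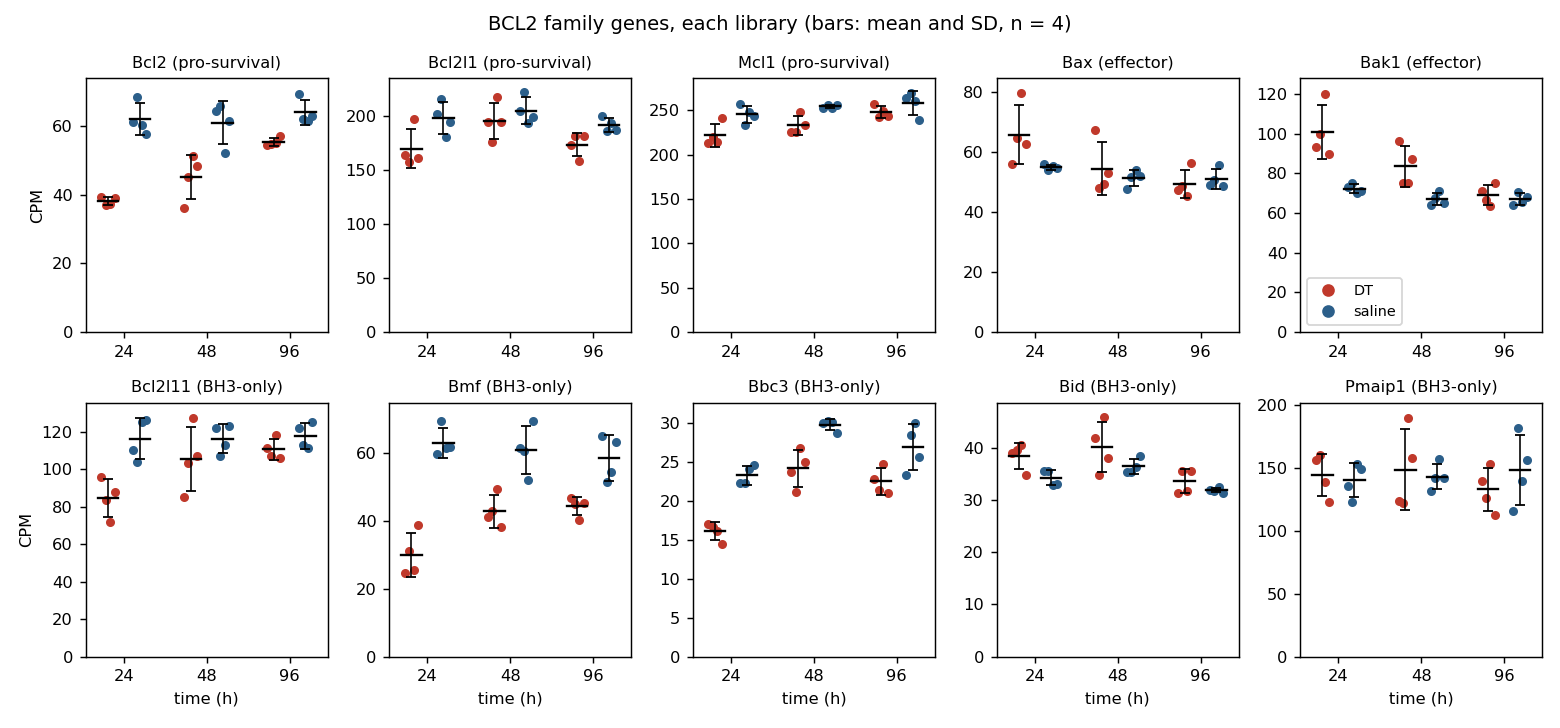
CPM of each gene (y axes, starting at 0) in each library, DT in red to the left of saline in blue, at 24, 48 and 96 h; black lines give the mean and SD of 4 libraries. At 24 h all DT points of Bmf (24.7 to 38.9 CPM) lie below all saline points (59.6 to 69.5 CPM), and those of Bak1 (89.9 to 120 CPM) lie above (69.9 to 75.1 CPM).

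Bcl2, the founding pro-survival gene (chromosome 1, 106538176 to 106714290 on GRCm38.p6), had 39.2, 36.9, 37.3 and 38.9 CPM in DT libraries at 24 h, against 61.2, 68.5, 60.2 and 57.6 CPM in saline libraries. The highest DT library was well below the lowest saline library. Bcl2 fell by 0.70 ± 0.08 on the log2 scale (SE), to 0.62 of saline (edgeR adjusted p = 7.98e-07).

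Bcl2l1, which encodes BCL-XL (chromosome 2, 152758732 to 152833803), had 157 to 197 CPM in DT libraries and 180 to 216 CPM in saline libraries at 24 h. The groups overlapped, and the fall was 0.22 ± 0.07 on the log2 scale (edgeR adjusted p = 0.0201). Mcl1 (chromosome 3, 95656944 to 95663179), whose protein is short-lived and is the main partner of NOXA, the product of Pmaip1, had 213 to 241 CPM in DT libraries and 233 to 257 CPM in saline libraries. It fell by 0.14 ± 0.05 (edgeR adjusted p = 0.0297), with 1 DT library, replicate 4 at 241 CPM, inside the saline range. Both calls were near the threshold. For Bcl2l1 the edgeR adjusted p was 0.0765 without DT replicate 2, 0.0585 without DT replicate 4 and 0.0617 without saline replicate 2 (0.00227 to 0.0765 over 8 libraries left out in turn), and for Mcl1 it was 0.0657 without DT replicate 2, 0.0995 without DT replicate 3 and 0.0575 without saline replicate 1 (0.00599 to 0.0995).

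Among the BH3-only genes, Bmf changed most. Its product binds BCL2 and BCL-XL and is known for a role in anoikis, the death of cells that lose their attachment. Bmf (chromosome 2, 118528757 to 118549686) had 24.7, 31.0, 25.4 and 38.9 CPM in DT libraries at 24 h, against 59.6, 69.5, 61.4 and 61.7 CPM in saline libraries. No DT library came near the saline range, and within the DT group replicate 4 was highest. The fall was 1.07 ± 0.12 on the log2 scale, to 0.48 of saline (edgeR adjusted p = 2.96e-07).

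Bbc3, which encodes PUMA (chromosome 7, 16308398 to 16318334), had 17.1, 16.7, 16.2 and 14.5 CPM in DT libraries, against 22.3, 22.3, 24.1 and 24.7 CPM in saline libraries, so that the groups did not overlap. It fell by 0.54 ± 0.08 (edgeR adjusted p = 2.01e-05). Bcl2l11, which encodes BIM (chromosome 2, 128126038 to 128162547), had 95.9, 83.3, 71.6 and 88.0 CPM in DT libraries and 110, 104, 125 and 126 CPM in saline libraries, again without overlap, and fell by 0.46 ± 0.10 (edgeR adjusted p = 0.000488).

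The other BH3-only genes, Bid and Pmaip1, did not pass the test. Bid (chromosome 6, 120893119 to 120917062), whose product is cut by caspase-8 and carries death receptor signals to mitochondria, had 34.8 to 40.5 CPM in DT and 32.9 to 35.5 CPM in saline libraries (log2 fold change 0.17 ± 0.07, edgeR adjusted p = 0.0683). Without DT replicate 4, its lowest DT library, Bid passed the threshold (0.0308, in a range of 0.0308 to 0.241 over 8 libraries left out). Pmaip1 had 123 to 160 CPM in DT and 123 to 153 CPM in saline libraries (0.04 ± 0.14, edgeR adjusted p = 0.846), with almost the same range in both groups.

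Both effectors were higher. Bak1 (chromosome 17, 27019812 to 27028627), whose protein sits in the outer mitochondrial membrane, had 93.0, 100, 120 and 89.9 CPM in DT libraries at 24 h, against 73.1, 75.1, 69.9 and 71.1 CPM in saline libraries. It rose by 0.48 ± 0.08 on the log2 scale, 1.39-fold (edgeR adjusted p = 7.40e-05). Bax (chromosome 7, 45461695 to 45466903), whose protein moves to mitochondria on activation, had 56.0, 64.6, 79.4 and 62.6 CPM in DT libraries, against 55.9, 53.9, 55.1 and 54.5 CPM in saline libraries. The lowest DT library of Bax was hardly above the highest saline library, and DT replicate 3 was highest for both effectors. On the nRPKM scale the groups overlapped for Bax, at 56.9 to 81.7 in DT and 55.5 to 57.3 in saline libraries. Bax rose by 0.26 ± 0.10 (edgeR adjusted p = 0.0370), and without DT replicate 3 the log2 fold change was 0.16 (edgeR adjusted p = 0.180). Its adjusted p was also above the threshold without DT replicate 2 (0.0558) and without saline replicate 1, 2, 3 or 4 (0.0672, 0.0937, 0.0883 and 0.0872), in a range of 0.0148 to 0.180 over 8 libraries left out.

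At 24 h, 2 of 8 fibroblast and 1 of 6 endothelial markers were called higher and 0 lower, no macrophage, neutrophil or general leukocyte marker was called, and 3 of 9 epithelial markers were called higher and 2 lower. Of all tested genes 19.9% were called higher and 18.9% lower. The part of the marker changes in the family's values was not tested. Without DT replicate 2 the number of family genes called at 24 h was 5. With 1 library left out, all genes called at 24 h numbered 5961 to 6729, against 6765 with every library.

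**Figure D2:**
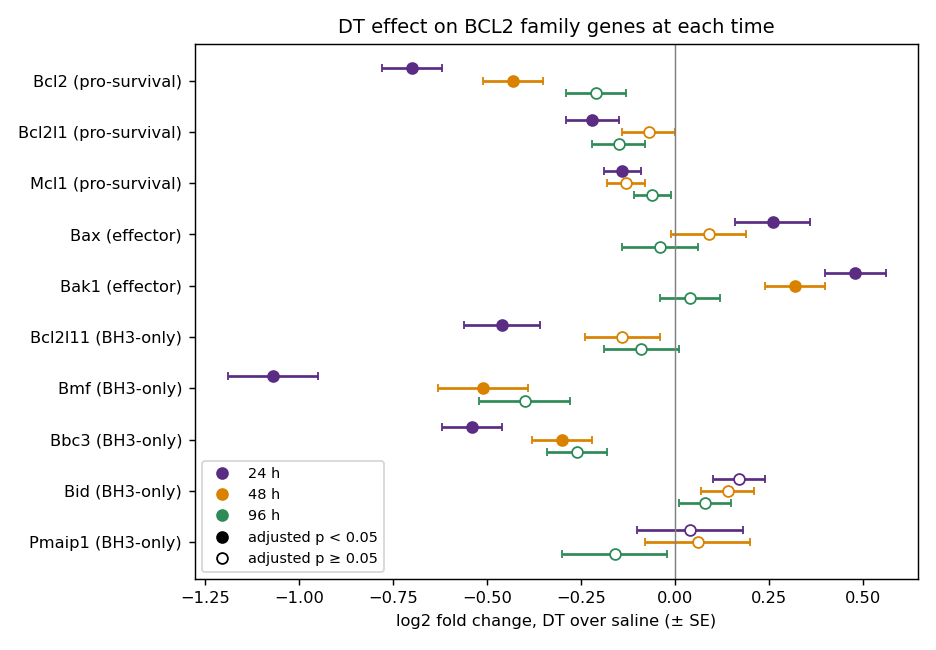
Log2 fold change of DT over saline (x axis; bars are SE) for each gene at 24, 48 and 96 h, with filled points for an edgeR adjusted p under 0.05. Bmf is farthest from 0 at 24 h (-1.07), the effectors Bax and Bak1 lie to the right of 0 at 24 h (0.26 and 0.48), and no point is filled at 96 h.

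At 48 h the log2 fold changes of all 10 genes kept their sign of 24 h, and fewer genes were called. Bcl2, Bbc3 and Bmf were called lower and Bak1 higher, 4 of the 10 genes. Of all tested genes 11.3% were called, 6.50% lower and 4.83% higher. DT libraries lay below all saline libraries for 4 family genes (Bcl2, Mcl1, Bbc3 and Bmf; 8.65% of tested genes) and above them for Bak1 (7.16%). Without DT replicate 3, Bcl2l11 joined the genes below all saline libraries (5 genes, against 14.2% of tested genes). Without DT replicate 1 the same 4 genes lay below (11.8%), and without either library Bak1 alone lay above (12.4% of tested genes without replicate 3 and 10.7% without replicate 1).

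Bcl2 had 36.2, 45.0, 51.1 and 48.4 CPM in DT libraries at 48 h, against 64.3, 65.9, 52.2 and 61.5 CPM in saline libraries. The separation was narrow, since the highest DT library, replicate 3, was close to saline replicate 3. Bcl2 fell by 0.43 ± 0.08 on the log2 scale (edgeR adjusted p = 0.00162). Bmf had 41.0, 42.8, 49.4 and 38.1 CPM in DT libraries, against 61.4, 60.6, 52.0 and 69.3 CPM in saline libraries, and fell by 0.51 ± 0.12 (edgeR adjusted p = 0.00634). Here too DT replicate 3 was the highest DT library.

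Bbc3 had 23.7, 21.2, 26.9 and 25.1 CPM in DT libraries, against 30.1, 30.3, 30.2 and 28.8 CPM in saline libraries, and fell by 0.30 ± 0.08 (edgeR adjusted p = 0.0196). Its call was lost without DT replicate 2 (log2 fold change -0.23, adjusted p = 0.0746) and without saline replicate 1 (-0.29, 0.0547), in a range of 0.0087 to 0.0746. Bak1 had 96.4, 74.9, 75.3 and 87.4 CPM in DT libraries, against 64.1, 67.5, 70.9 and 65.1 CPM in saline libraries, and rose by 0.32 ± 0.08 (edgeR adjusted p = 0.0135). Its call was lost without DT replicate 1, its highest library (0.25, adjusted p = 0.0560), and without DT replicate 4 (0.30, 0.0522), in a range of 0.00466 to 0.0560.

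The other 6 genes were not called at 48 h. Mcl1 had 225 to 248 CPM in DT and 253 to 256 CPM in saline libraries, a difference without overlap but small (log2 fold change -0.13 ± 0.05, edgeR adjusted p = 0.116). Bcl2l1 (-0.07 ± 0.07), Bcl2l11 (-0.14 ± 0.10), Bid (0.14 ± 0.07), Pmaip1 (0.06 ± 0.14) and Bax (0.09 ± 0.10) overlapped between groups, with edgeR adjusted p of 0.196 to 0.835. Bcl2l11 spread from 85.4 CPM in DT replicate 1 to 127 CPM in DT replicate 3, wider than the 107 to 123 CPM of saline libraries.

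Without DT replicate 3, apart on the first principal component, the same 4 genes were called at 48 h, each with a larger change. Log2 fold changes were then -0.48 for Bcl2, -0.57 for Bmf, -0.33 for Bbc3 and 0.38 for Bak1 (edgeR adjusted p = 0.000832, 0.00361, 0.0087 and 0.00466). Pmaip1 changed sign, to -0.07 (edgeR adjusted p = 0.775), and all genes called numbered 2741 in place of 1979. Without DT replicate 1, apart by chi-square, 3 family genes were called and all genes called numbered 1496. Log2 fold changes were then -0.34 for Bcl2, -0.49 for Bmf and -0.28 for Bbc3 (edgeR adjusted p = 0.00509, 0.0219 and 0.0470), Bak1 was not called, and Bax changed sign, to -0.03 (edgeR adjusted p = 0.892). When the 48 h libraries were fitted alone, 1 family gene was called, Bmf, and edgeR adjusted p were 0.0545 for Bcl2, 0.0613 for Bbc3 and 0.0563 for Bak1. At 48 h the sums of the fibroblast markers, given above, were higher in DT libraries apart from a small overlap, although 0 of the 8 was called, and 1 of 6 endothelial markers was called higher. Their part in the family's values was not tested.

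At 96 h no family gene was called by edgeR's quasi-likelihood test, where 4.03% of tested genes were called, 3.02% lower and 1.01% higher. Bbc3, Bcl2 and Bmf had an unadjusted p under 0.05, as did 15.5% of tested genes. limma called 2 of the 10 genes, Bmf and Bbc3, and DESeq2 called 1, Bmf. DT libraries lay below all saline libraries for Bcl2, Bcl2l1 and Bmf, as for 6.70% of tested genes, and above them for 0 of the 10, against 4.91% of tested genes.

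Bmf had 46.8, 45.1, 40.4 and 45.3 CPM in DT libraries at 96 h, against 65.1, 51.4, 54.3 and 63.2 CPM in saline libraries (log2 fold change -0.40 ± 0.12, edgeR adjusted p = 0.0551). Without saline replicate 2, its lowest saline library, the value was -0.46 (adjusted p = 0.0383, in a range of 0.0383 to 0.189). Bcl2 had 54.5, 54.8, 55.1 and 57.0 CPM in DT libraries, against 69.3, 62.0, 61.5 and 62.9 CPM in saline libraries (-0.21 ± 0.08, adjusted p = 0.194). The 4 DT values of Bcl2 were nearly equal and all below the saline values.

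Bbc3 had 21.1 to 24.8 CPM in DT and 23.4 to 30.1 CPM in saline libraries at 96 h (-0.26 ± 0.08, edgeR adjusted p = 0.0850), and without saline replicate 1, the lowest of its group, the log2 fold change was -0.32 (0.0299, in a range of 0.0299 to 0.332). The effectors no longer differed in a way the test could call: Bak1 had 63.3 to 75.2 CPM in DT and 64.0 to 70.5 CPM in saline libraries (0.04 ± 0.08, adjusted p = 0.894), and Bax 45.2 to 56.2 CPM and 48.5 to 55.7 CPM (-0.04 ± 0.10, adjusted p = 0.910). Log2 fold changes of the remaining 5 genes lay between -0.16 (Pmaip1) and 0.08 (Bid), with edgeR adjusted p of 0.356 to 0.759.

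Whether the effect of DT differed among the times was tested directly. Bcl2 (edgeR interaction adjusted p = 0.0277) and Bmf (0.0225) passed, 2 of the 10 genes, where 7.97% of tested genes passed. With Bak1 and Bcl2l11, 4 of the 10 genes had an unadjusted edgeR interaction p under 0.05, as did 21.3% of tested genes. The effect on Bcl2 was less negative at 96 h than at 24 h by 0.49 ± 0.12 on the log2 scale (edgeR adjusted p = 0.00816), and that on Bmf by 0.67 ± 0.17 (0.0102). For Bak1 the interaction over 3 times had an adjusted p of 0.0513, while the single contrast of 96 h with 24 h was -0.44 ± 0.12 (0.0174). In that contrast 3 of the 10 genes were called, where 11.9% of tested genes were. The contrast of 48 h with 24 h was called for no family gene. Its smallest edgeR adjusted p was that of Bmf (0.56 ± 0.17, 0.0701), so a weaker effect at 48 h than at 24 h was not shown. For Bcl2l11, Bbc3 and Bax, which were called at 24 h and not at 96 h, the contrast of 96 h with 24 h was 0.37 ± 0.13, 0.28 ± 0.12 and -0.31 ± 0.14, with edgeR adjusted p of 0.0739, 0.119 and 0.157. Bcl2l1 and Mcl1 were likewise called at 24 h and not at 96 h, with contrasts of 0.08 ± 0.10 and 0.08 ± 0.07 (0.697 and 0.494). A change of the effect with time was not shown for any of these genes.

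The interaction of Bcl2 was above the threshold without DT replicate 2 or 3 of 24 h (edgeR adjusted p = 0.0600 and 0.0607), saline replicate 2 of 24 h (0.0558) or saline replicate 2 or 4 of 96 h (0.0534 and 0.0535), in a range of 0.00341 to 0.0607 over 24 libraries left out. That of Bmf was above it without DT replicate 3 (0.0676) or saline replicate 2 (0.0518) of 24 h, in a range of 0.00159 to 0.0676. Without DT replicate 1 of 48 h, Bak1 (0.0213) and Bcl2l11 (0.0375) passed as well, 4 genes in all, and Bak1 also without DT replicate 4 of 24 h (0.0288). Both contrasts of 96 h with 24 h held under every library left out, with edgeR adjusted p of at most 0.0190 for Bcl2 and 0.0286 for Bmf. That of Bak1 was lost without saline replicate 3 (-0.37, 0.0644) or 4 (-0.39, 0.0586) of 24 h or DT replicate 3 of 96 h (-0.35, 0.0672), in a range of 0.00614 to 0.0672.

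Within the DT libraries, 8 of the 10 genes differed among the 3 times (edgeR adjusted p under 0.05), where 33.8% of tested genes did. From 24 h to 96 h, Bcl2 was higher by 0.54 ± 0.08 on the log2 scale, Bmf by 0.56 ± 0.12, Bbc3 by 0.48 ± 0.08, Bcl2l11 by 0.39 ± 0.10 and Mcl1 by 0.16 ± 0.05. In the same contrast Bak1 dropped by 0.55 ± 0.08, Bax by 0.42 ± 0.10 and Bid by 0.20 ± 0.07. Of all tested genes 37.5% were called in this contrast, 16.6% higher and 20.9% lower. The largest edgeR adjusted p of these 8 contrasts was 0.0322, for Bid. The call of Mcl1 over 3 times (edgeR adjusted p = 0.0474) was lost without DT replicate 1, 2 or 3 of 24 h (0.0568, 0.101 and 0.113), replicate 4 of 48 h (0.0612) or replicate 1 or 2 of 96 h (0.134 and 0.0582), in a range of 0.0143 to 0.134. That of Bid (0.0162) was lost without DT replicate 1 or 3 of 96 h (0.0698 and 0.0573), in a range of 0.00363 to 0.0698. Bcl2l1 (0.0630) and Pmaip1 (0.596) were not called, though Bcl2l1 passed in 4 of 12 fits with a DT library left out (0.0116 to 0.140).

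Within the saline libraries, no family gene differed among the times by edgeR, where 1.05% of tested genes did. Bbc3 and Bid had an unadjusted p under 0.05, as did 13.8% of tested genes. Bbc3 had the smallest adjusted p (0.0648), with means of 23.4, 29.8 and 26.9 CPM at 24, 48 and 96 h. limma and DESeq2 each called Bbc3 (adjusted p = 0.0137 and 0.0133), as did edgeR without saline replicate 1 of 96 h (0.0180, in a range of 0.0180 to 0.167).

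**Figure D3:**
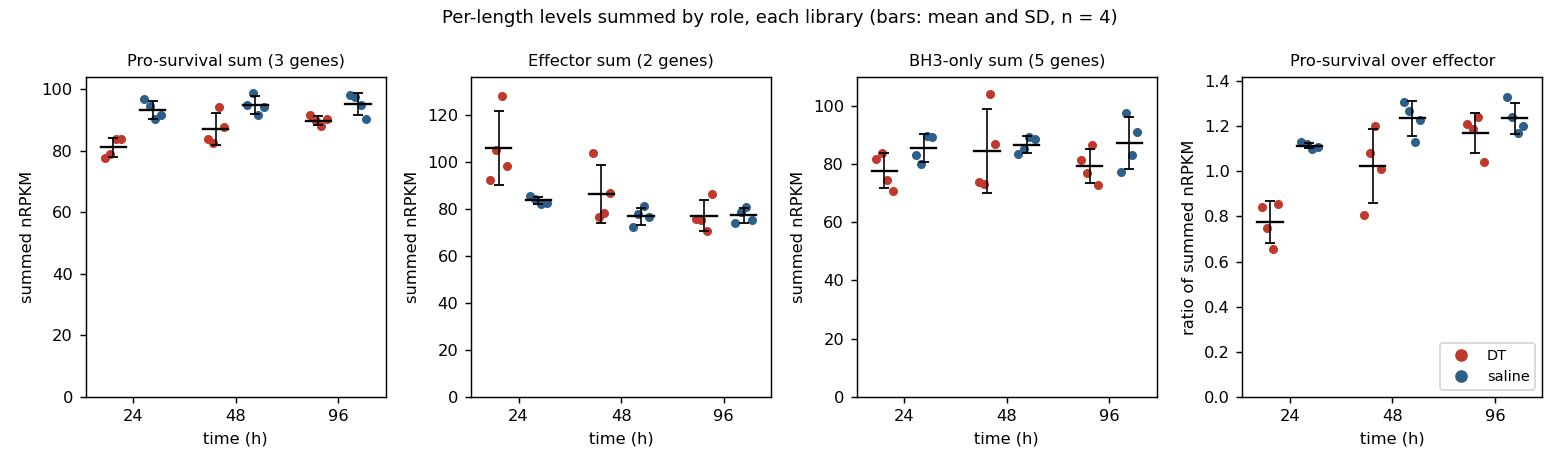
Summed nRPKM of the pro-survival, effector and BH3-only genes, and the ratio of the pro-survival to the effector sum (y axes, starting at 0), in each library, DT in red to the left of saline in blue, at 24, 48 and 96 h; black lines give the mean and SD of 4 libraries. At 24 h the ratio is 0.654 to 0.855 in DT libraries and 1.10 to 1.13 in saline libraries, and at 96 h the groups overlap.

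Levels of different genes were set side by side on the authors' nRPKM scale, which is per length. In DT libraries at 24 h, Bax (67.2 ± 10.5 nRPKM; SD, n = 4) led and its libraries were apart from those of Mcl1 (51.2 ± 2.94), which overlapped with Pmaip1 (48.5 ± 5.68). Bak1 (38.5 ± 5.33) stood above Bcl2l1 (25.5 ± 2.83) without overlap. Bid (10.9 ± 0.755) and Bcl2l11 (10.4 ± 1.19) overlapped, and Bmf (4.81 ± 1.05) overlapped with Bcl2 (4.38 ± 0.103), with Bbc3 (3.06 ± 0.219) below both.

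The order in saline libraries at 24 h was another. Mcl1 (56.4 ± 2.20 nRPKM; SD, n = 4) and Bax (56.1 ± 0.830) led and overlapped, followed by Pmaip1 (47.0 ± 4.34), then by Bcl2l1 (29.7 ± 2.43) and Bak1 (27.6 ± 1.07), which overlapped. Lower levels were those of Bcl2l11 (14.3 ± 1.23), Bmf (10.1 ± 0.753), Bid (9.73 ± 0.468), Bcl2 (7.10 ± 0.572) and Bbc3 (4.43 ± 0.217). Of these neighbours only Bmf and Bid overlapped. In both groups Bcl2 was the least abundant of the 3 pro-survival transcripts, and Mcl1 the most abundant. At 48 h the order in DT libraries was led by Bax, Mcl1 and Pmaip1, all overlapping (54.9 ± 8.86, 53 ± 2.48 and 49.2 ± 10.8 nRPKM). Without DT replicate 1 the mean of Mcl1 (53.6 ± 2.57) was above that of Pmaip1 (51.9 ± 11.4) and Bax (50.6 ± 2.64), and without DT replicate 3 Bax led (56.6, from 48.5 to 67.8), before Mcl1 (51.8 ± 1.18) and Pmaip1 (44.6 ± 6.78; SD, n = 3). At 96 h Mcl1 had the highest mean in both groups, with 57.3 ± 1.47 nRPKM in DT and 59.2 ± 3.16 nRPKM in saline libraries, and overlapped with Bax in each.

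Summed by role, the 3 pro-survival genes held 77.7, 79.0, 83.6 and 83.9 nRPKM in DT libraries at 24 h, against 96.6, 94.5, 90.3 and 91.5 nRPKM in saline libraries. The 2 effectors held 92.2, 105, 128 and 98.1 nRPKM in DT libraries, against 85.3, 84.4, 82.3 and 82.7 nRPKM in saline libraries. Neither sum overlapped between the groups, and they lay apart in opposite directions. The 5 BH3-only genes, of which Pmaip1 had the highest level, held 70.7 to 83.7 nRPKM in DT and 80.0 to 89.7 nRPKM in saline libraries and overlapped.

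The ratio of the pro-survival sum to the effector sum averaged 0.776 ± 0.0935 in DT and 1.11 ± 0.0153 in saline libraries at 24 h, 1.02 ± 0.167 and 1.24 ± 0.0788 at 48 h, and 1.17 ± 0.0877 and 1.23 ± 0.0683 at 96 h (SD, n = 4). DT and saline libraries were apart at 24 h and overlapped at the later times. At 48 h, DT replicate 3 had the highest ratio of its group (1.20) and DT replicate 1 the lowest (0.805). Without replicate 3 the DT libraries at 48 h averaged 0.964 ± 0.142 and, at 0.805 to 1.08, no longer overlapped with saline libraries (1.13 to 1.31), while without replicate 1 they averaged 1.10 ± 0.0988 and still overlapped (SD, n = 3). Against all 7 pro-death genes together, the ratio averaged 0.444 ± 0.0384 in DT and 0.551 ± 0.0263 in saline libraries at 24 h, 0.511 ± 0.0331 and 0.581 ± 0.0340 at 48 h, and 0.574 ± 0.0137 and 0.580 ± 0.0481 at 96 h. At 48 h the DT mean of this ratio was 0.508 ± 0.0402 without replicate 3 and 0.524 ± 0.0238 without replicate 1 (SD, n = 3). These ratios describe transcripts chosen with results known and carry no test.

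Across the 24 libraries, Bcl2 and Bmf moved together (Pearson r of log2 CPM 0.87), and Bak1 moved against Bcl2 (-0.87), Bcl2l11 (-0.89), Mcl1 (-0.81) and Bmf (-0.80). Pmaip1 followed none of the others closely, with r between -0.12 and 0.28. These correlations are over libraries that share the contrast of DT with saline, and are given as a description. The genes most like Bmf over the 24 libraries were Pcdhb9 (r 0.967), Slc25a23 (0.960) and Nkd1 (0.959). Those most like Bcl2 were Pcmtd1 (0.956), Zfp715 (0.953) and Sh3rf1 (0.951), and those most like Bbc3 were Pim1 (0.934), Tgif1 (0.932) and Trib1 (0.930). Each of these 9 genes was lower in DT than in saline libraries at 24 h, with log2 fold changes of -0.22 (Tgif1) to -1.18 (Pcdhb9). They were picked for likeness to Bmf, Bcl2 and Bbc3, which fell over the same libraries, so this is no separate result.

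The rest of the pathway was followed in 67 further genes in 6 lists, and the 4 genes with the smallest p at any time are named in each. Of all tested genes, edgeR called 38.7% at 24 h (19.9% higher, 18.9% lower). It called 11.3% at 48 h (4.83% higher, 6.50% lower) and 4.03% at 96 h (1.01% higher, 3.02% lower). An unadjusted p under 0.05 was reached by 26% of tested genes at 48 h and 15.5% at 96 h. All genes called were more with limma at both of these times. At 48 h they were also more without DT replicate 3, and fewer without DT replicate 1. Among 15 other BCL2 family genes, 10 were tested, and at 24 h 2 were higher and 4 lower, at 48 h 2 and 2, and at 96 h 0 and 1. Without DT replicate 4 or saline replicate 2, 3 or 4, 2 of the 10 were called at 48 h, and without DT replicate 1 or 3 the number stayed 4. Bnip3, a receptor for the removal of mitochondria by autophagy that hypoxia is known to induce, averaged 9.78 ± 2.47 CPM in DT and 21.1 ± 1.94 CPM in saline libraries at 24 h (log2 fold change -1.11 ± 0.18, edgeR adjusted p = 3.65e-05). Its relative Bnip3l was also lower (-0.43 ± 0.06, 3.04e-06), and was the gene called at 96 h (-0.21 ± 0.06, 0.0395), a call kept only without saline replicate 1 among 8 libraries left out (0.0424 to 0.208). Bcl2l13 was higher at 24 h (0.33 ± 0.05, 6.41e-06), as was Bcl2l15, a scarce transcript (1.73 ± 0.31, 0.00011) of 2.45 ± 0.873 CPM in DT and 0.745 ± 0.232 CPM in saline libraries. Bcl2a1a, Bcl2a1b and Bcl2a1d, near-identical copies among which counting could divide or drop reads, and Bcl2l10 and Hrk had too few counts to be tested, with at most 0.636 CPM in any library.

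Of 11 genes of the apoptosome and caspase list, 4 were higher and 3 lower at 24 h, against 19.9% and 18.9% of tested genes. None was called later by edgeR, with 2 at an unadjusted p under 0.05 at 48 h and 1 at 96 h, against 26% and 15.5% of tested genes. At 48 h 1 was called without DT replicate 1, 1 without DT replicate 3, 3 by limma and 0 by DESeq2, and at 96 h 1 by limma and 0 by DESeq2. Casp9, the initiator caspase of the apoptosome, averaged 27.8 ± 2.30 CPM in DT and 36.4 ± 2.21 CPM in saline libraries at 24 h (log2 fold change -0.38 ± 0.07, edgeR adjusted p = 7.19e-05). Casp2 (0.38 ± 0.07), Htra2, a mitochondrial protease that can inactivate caspase inhibitors (0.44 ± 0.10), and Aifm1, a flavoprotein of the mitochondrial intermembrane space (0.31 ± 0.07), were higher, with adjusted p of 0.000107 to 0.000998.

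Among the 5 caspase inhibitor genes, 1 was higher and 2 lower at 24 h, against 19.9% and 18.9% of tested genes. Birc5, which encodes survivin, a protein that also acts in chromosome segregation, averaged 32.2 ± 7.27 CPM in DT and 10.4 ± 1.81 CPM in saline libraries (log2 fold change 1.63 ± 0.17, edgeR adjusted p = 1.36e-07). It was higher at 48 h as well (0.55 ± 0.17, 0.0355), a call kept only without DT replicate 3 or saline replicate 3 among 8 libraries left out (0.0111 to 0.159). Xiap, the direct inhibitor of caspase-9 and caspase-3, was lower at 24 h (-0.46 ± 0.12, 0.00398), as was Birc2 (-0.35 ± 0.10, 0.00731). Birc6 gave -0.06 ± 0.13 (0.741). At 96 h edgeR called 0 of the 5, with 1 at an unadjusted p under 0.05 (15.5% of tested genes), while limma called 1 and DESeq2 0.

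In the list of 12 death receptors and their adaptors, 11 genes were tested. At 24 h 3 of them were higher and 2 lower, against 19.9% and 18.9% of all tested genes. None was called later by edgeR, with 3 at an unadjusted p under 0.05 at 48 h and 0 at 96 h, against 26% and 15.5% of tested genes. At 48 h 1 was called without DT replicate 3, 0 without DT replicate 1, 2 by limma and 0 by DESeq2, and at 96 h 0 by limma and 0 by DESeq2. Tnfsf10, the ligand TRAIL, averaged 9.06 ± 2.28 CPM in DT and 4.87 ± 0.634 CPM in saline libraries at 24 h (log2 fold change 0.89 ± 0.20, edgeR adjusted p = 0.00121). Fadd, the adaptor that recruits caspase-8, was higher (0.37 ± 0.09, 0.00244), and Tnfrsf1b (-0.30 ± 0.08, 0.00487) and Ripk1 (-0.19 ± 0.05, 0.0049) were lower.

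Of 12 genes known to act on family members, 11 were tested. At 24 h 5 of them were higher and 2 lower, against 19.9% and 18.9% of all tested genes. None was called later by edgeR, with 3 at an unadjusted p under 0.05 at 48 h and 2 at 96 h, against 26% and 15.5% of tested genes. At 48 h 1 was called without DT replicate 3, 0 without DT replicate 1, 3 by limma and 0 by DESeq2, and at 96 h 0 by limma and 0 by DESeq2. Trim17, a ubiquitin ligase for MCL1 in mouse neurons, averaged 3.21 ± 0.328 CPM in DT and 0.670 ± 0.275 CPM in saline libraries (log2 fold change 2.24 ± 0.29, edgeR adjusted p = 2.49e-06). E2f1, an S phase transcription factor that can raise BH3-only genes, was higher (0.77 ± 0.11, 4.87e-06), and Becn1, an autophagy protein that BCL2 binds, was lower (-0.20 ± 0.04, 0.000577). Trp53 transcripts were higher (0.37 ± 0.09, 0.00148), averaging 37.6 ± 2.69 CPM in DT and 29.1 ± 3.63 CPM in saline libraries. Counts over a whole gene do not check whether part of it is deleted.

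Among 12 p53 target genes outside the family, 1 was higher and 6 lower at 24 h, against 19.9% and 18.9% of tested genes. At 48 h 0 were higher and 1 lower (3 in either direction without DT replicate 3, 1 without DT replicate 1). At 96 h edgeR called 0, with 1 at an unadjusted p under 0.05 (15.5% of tested genes), while limma called 1 and DESeq2 0. Btg2, an inhibitor of proliferation, averaged 231 ± 40.2 CPM in DT and 403 ± 43.3 CPM in saline libraries at 24 h (log2 fold change -0.80 ± 0.11, edgeR adjusted p = 3.06e-06), and it was the gene called at 48 h (-0.50 ± 0.11, 0.00366). Trp53inp1 (-0.69 ± 0.13, 0.000159), Sesn2 (-0.50 ± 0.10, 0.000393) and Sesn1 (-0.41 ± 0.10, 0.00155) were lower at 24 h. Within the family, the p53 targets Bbc3, Bax and Pmaip1 did not go one way at 24 h: as given above, Bbc3 was lower, Bax higher and Pmaip1 at 0.04 ± 0.14.

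**Figure D4:**
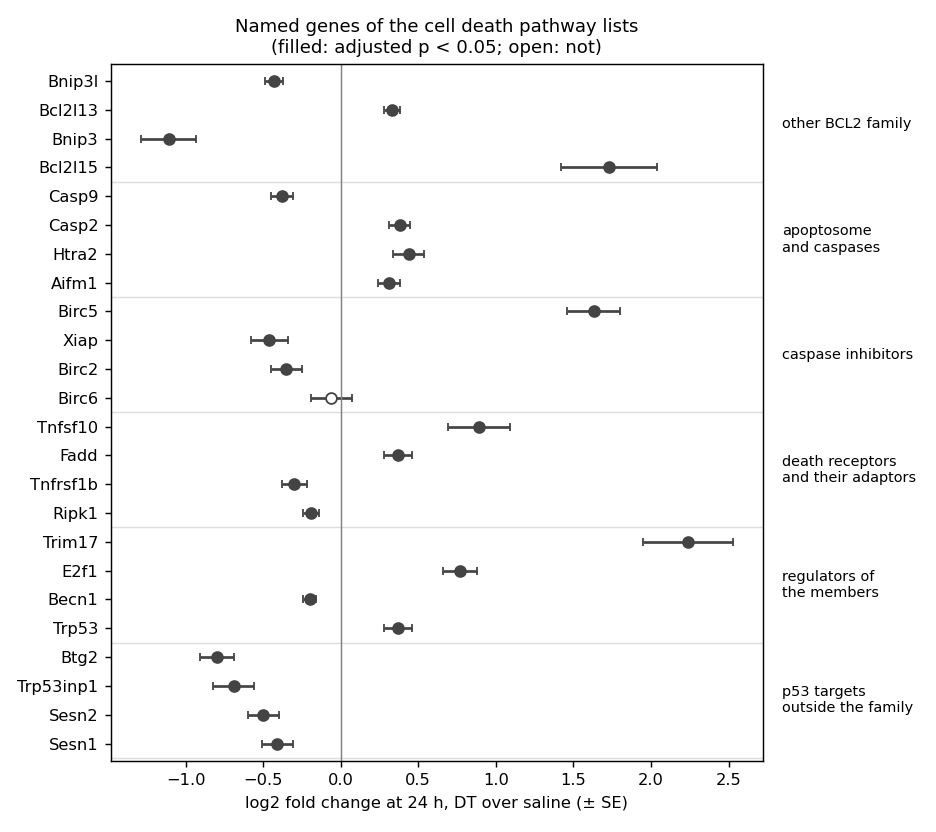
Log2 fold change of DT over saline at 24 h (x axis; bars are SE) for the 4 named genes of each of 6 pathway lists, with filled points for an edgeR adjusted p under 0.05. Trim17 (2.24) and Bcl2l15 (1.73) lie farthest to the right and Bnip3 (-1.11) farthest to the left; the open point is Birc6.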

How the data were processed

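RNA-seq of 24 libraries was analysed from the per-library tables of 36528 genes. The deposited counts are whole numbers per gene, not normalised, and the deposited nRPKM values are RPKM that the authors scaled by a size factor per library. Over the 11928 genes whose nRPKM sets that factor, nRPKM was count times a factor per gene and a factor per library, within a relative difference of 7.0e-15. Both factors were fitted from these values, and gene length itself was not checked. GSNAP and GRCm38 are named in the submitters' processing notes, and whether counting used strand is not given in the sources used here. RNA was polyadenylated RNA, purified with RNeasy Micro, per the labels' protocols. Gene IDs were matched to RefSeq symbols for 85.0% of IDs, and the unmatched IDs held 1.29% to 1.52% of counts. They stayed in library sizes and tests.

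Libraries were grouped by treatment and time from the labels. The test on counts was that of edgeR 4.0.16 under R 4.3.3 (TMM scaling, filterByExpr by group, robust quasi-likelihood fit of the 6 group means, 18 residual degrees of freedom, 17468 genes). Two-sided p-values were adjusted by Benjamini-Hochberg over all genes tested, with a threshold of 0.05. CPM used TMM library sizes, and SE is the size of the log2 fold change over the root of F. The common biological coefficient of variation was 0.12. Replicates of every group differed by more than counting noise (chi-square per degree of freedom at least 3.97), so no library was treated as deposited more than once. This does not show that they are independent.

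The 10 family genes, the 6 pathway lists and the 8 marker lists were chosen with earlier results of these data known. Named were all 10 family genes, from each pathway list the 4 genes of smallest p at any time, and, for the 3 family genes of smallest p over all groups, the 3 genes of highest r. Alternatives were median-of-ratios, upper-quartile and the authors' size factors, no low-count filter, a filter of 1 CPM in 4 libraries, a dispersion fit that was not robust, a replicate block, limma 3.58.1 (voom with quality weights), DESeq2 1.42.0, a fit of only the libraries compared, and each library left out in turn. Levels and overlaps at 48 h without DT replicate 1 or 3 were added after seeing the data. Same-numbered DT and saline libraries showed no pairing, which does not exclude one, and the block is an alternative only. Sums and ratios of nRPKM were not tested.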

Additional observations from a re-analysis of the deposited data

Results flagged for a closer look

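Several effects of DT differed among the times by a test of the difference itself. Of all tested genes 7.97% passed the interaction, and 11.9% the contrast of 96 h with 24 h. Among the family genes, Bcl2 (edgeR interaction adjusted p = 0.0277) was less negative at 96 h than at 24 h by 0.49 on the log2 scale and Bmf (0.0225) by 0.67, while the effect on Bak1 changed by -0.44.

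The pathway genes below were picked for the smallest p of DT against saline at any time. Such a pick favours a large effect at the time of that p, and so a smaller one at other times. In the rest of the pathway, Birc5 had an edgeR interaction adjusted p of 0.00379, and its effect changed by -1.08 at 48 h and -1.18 at 96 h relative to 24 h. Trim17 had 0.00383, and changed by -1.58 and -2.33. The interactions of both held in 24 of 24 fits with 1 library left out, while the 48 h contrast of Trim17 held in 7. Casp9 had 0.0249 (held in 21 of 24), and changed by 0.40 at 96 h. Bnip3l had 0.0358 (18 of 24), and changed by 0.32 at 48 h. E2f1 had 0.0396 (6 of 24), and changed by -0.52 at 96 h. Single contrasts of 96 h with 24 h were called for Bcl2l13 (-0.24), Bcl2l15 (-1.47), Htra2 (-0.48) and Btg2 (0.47), and held in 14, 17, 16 and 15 of 24 fits with 1 library left out.

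Single libraries far from the others of their group, relative to the spread of that group, were found in 11 of 204 groups over 34 genes. Chance gives about 1 in 20, and the number found was near that share. Among the family genes this was Bbc3 in saline at 48 h, where replicate 4 was lowest at 28.8 CPM, close to the 30.1, 30.3 and 30.2 CPM of the others. In DT at 24 h, replicate 4 was highest for Bnip3 (13.4 CPM), replicate 2 highest for Bcl2l15 (3.76 CPM) and replicate 3 lowest for Trp53inp1 (47.2 CPM). In DT at 48 h, replicate 1 was lowest for Birc6 (170 CPM), replicate 2 highest for Tnfsf10 (7.97 CPM) and replicate 3 lowest for E2f1 (19.3 CPM). Sesn2 was highest in DT replicate 1 at 96 h (18.2 CPM). In saline libraries, replicate 4 at 48 h was highest for Casp9 (36.5 CPM) and Casp2 (60.3 CPM), and replicate 2 at 96 h was lowest for Casp9 (30.8 CPM).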

How the results depend on the processing

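The 24 h calls of Bcl2, Bmf, Bbc3, Bcl2l11 and Bak1 held in all 10 alternatives and with each of 8 libraries left out. Family genes called at 24 h numbered 6 to 9 over alternatives and 5 to 8 with 1 library left out; without the low-count filter the edgeR adjusted p was 0.123 for Bcl2l1 and 0.285 for Mcl1, and with only the 24 h libraries 0.0625 and 0.113. Bid passed with upper-quartile scaling (0.0463) and with the filter of 1 CPM in 4 libraries (0.0426).

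With limma, genes called numbered 3975 at 48 h, 1561 at 96 h, 2169 in the interaction and 692 among saline times, and DESeq2 called 630 among saline times. A fit of only the libraries compared called 945 genes and 1 family gene at 48 h. Family genes called at 96 h numbered 2 with limma, 1 with DESeq2 and 1 with only those libraries, and among saline times 1 with limma and 1 with DESeq2. The interaction called 1 family gene without the low-count filter (Bmf; Bcl2 0.0537), and Bak1 passed it with the filter of 1 CPM in 4 libraries (0.0451), limma (0.0182) and DESeq2 (0.0377). The interaction over all 3 times needs all libraries, so the fit of only the libraries compared has no separate value for it.

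With 1 library left out, counts of genes called ranged from 1154 (without DT replicate 4) to 2741 at 48 h, 359 (without DT replicate 2) to 680 at 96 h, 840 (without saline replicate 2 of 24 h) to 2070 in the interaction and 62 (without saline replicate 2 of 24 h) to 790 (without saline replicate 1 of 96 h) among saline times, and of family genes from 0 to 1 at 96 h, 0 to 4 in the interaction and 0 to 1 among saline times. The log2 fold change crossed 0 for Pmaip1 (-0.03 to 0.11 at 24 h, -0.07 to 0.15 at 48 h), Bax (-0.03 to 0.15 at 48 h, -0.09 to 0.02 at 96 h) and Birc6 (-0.19 to 0.04 at 48 h), none of which was called there. The cause of these changes was not tested.

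With the replicate number as a block, 6540, 1717 and 589 genes and 7, 4 and 0 family genes were called at 24, 48 and 96 h, and 1108 genes and 1 family gene (Bmf; Bcl2 0.0511) in the interaction; Bax at 24 h had an edgeR adjusted p of 0.0524. Deviations of same-numbered DT and saline libraries correlated at -0.356 to 0.130 over 12 pairs, 2 of them over 0.1, so no pairing by number was seen. Saline replicate 4 of 48 h and saline replicate 1 of 96 h, of unlike number and time, correlated at 0.514. Such values cannot exclude a pairing.

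Depth did not keep any of the 10 genes from the test. Labels do not say whether libraries came from separate animals, and transcripts in sorted bulk RNA say nothing of protein.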
